A study of Mus musculus with 8 samples.

Results

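TRAV14 is a family of T cell receptor alpha chain variable segments whose products are known as Valpha2. Its members were taken as every productive TRA contig whose V label begins with TRAV14-, TRAV14D- or TRAV14N- and carries no DV suffix. The rule found 427 of 5997 TRA contigs. They came from 425 of 5488 cells with a TRA chain and from 328 of 3721 clones with one, and carried 6 of 88 TRAV labels. A clone here is a clonotype number of the deposited tables, counted within 1 library, and a cell is a barcode. The label TRAV14D-3-DV8, with 39 contigs, lies outside the rule because it is also named as a delta chain segment.

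Single-cell receptor libraries were made from CD45+ immune cells sorted from brain parenchyma. The design compared 5xFAD mice with 5xFAD;Cxcr6-/- mice, 2 libraries of each genotype, to learn how CXCR6, a chemokine receptor of tissue-resident T cells, shapes T cells of the brain. All 4 libraries share the C57BL/6 strain and the 5xFAD transgenes, human amyloid precursor protein and presenilin with familial Alzheimer's disease mutations expressed from a neuronal promoter, so no library comes from a mouse without amyloid pathology. The notation Cxcr6-/- stands for loss of both alleles in the whole animal, not in T cells alone. The sources used here give neither age nor sex, and do not say whether libraries of a genotype are separate mice, pools or repeat preparations, so each p-value reflects nothing beyond the spread of these libraries. The cells were not sorted for T cells, and the receptor tables hold no CD4 or CD8 reading.

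An alpha chain is built in the thymus by joining 1 TRAV segment to 1 TRAJ segment, with bases trimmed and untemplated bases added at the junction. The first and second complementarity-determining regions (CDR1 and CDR2) are encoded by the TRAV segment itself, while the third (CDR3) spans the junction and faces the peptide. The mouse TRAV locus holds duplicated blocks, so TRAV14 exists in several near-identical copies along the chromosome, marked by D and N in their names. A developing T cell can replace an early join by a later one that uses a TRAV farther upstream and a TRAJ farther downstream, with TRAJ58 at the end of the array nearest to the TRAV segments.

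Most of the 6 copies differ in the loops that the segment encodes, and these letters are shown because they set those loops. The stretch from CDR1 to the end of CDR2 is shown 5′ to 3′ from the deposited contigs, with capitals where a copy differs from TRAV14D-1.
TRAV14D-1: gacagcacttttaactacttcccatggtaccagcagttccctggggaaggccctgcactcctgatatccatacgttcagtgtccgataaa
TRAV14D-2: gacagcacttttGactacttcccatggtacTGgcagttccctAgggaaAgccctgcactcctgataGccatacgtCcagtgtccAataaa
TRAV14N-3: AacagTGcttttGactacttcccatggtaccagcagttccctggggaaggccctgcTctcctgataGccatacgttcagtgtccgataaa
TRAV14-1: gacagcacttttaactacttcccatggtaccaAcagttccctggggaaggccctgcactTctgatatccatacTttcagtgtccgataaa
TRAV14-2: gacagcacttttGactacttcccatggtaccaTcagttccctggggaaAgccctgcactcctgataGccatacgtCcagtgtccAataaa
TRAV14-3 had the same letters as TRAV14N-3 over these 90 bases, so these 2 labels differ only outside the stretch shown. Between TRAV14D-1 and the others there were 3 to 8 differences.

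The copies fall into groups by loop. TRAV14D-2 and TRAV14-2 encoded the same CDR1 and CDR2 residues. TRAV14N-3 and TRAV14-3 likewise encoded the same 2 loops. TRAV14D-1 and TRAV14-1 shared their CDR1 and differed in CDR2. Over the 267 bases from framework 1 to framework 3, the copies were 92.5% to 98.1% identical to each other.

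On GRCm38 the copies lie on chromosome 14, plus strand, and the annotation (GENCODE vM21) gives each as a TR_V_gene. TRAV14D-1 spans 52855614 to 52856166 and TRAV14D-2 spans 52948568 to 52949169. TRAV14N-3 follows at 53370077 to 53370575. TRAV14-1 lies at 53554022 to 53554558, TRAV14-2 at 53640701 to 53641225, and TRAV14-3, the copy closest to the TRAJ array, at 53763173 to 53763694. Every contig of a label carried 1 and the same V sequence, identical to the germline of that label. TRAV14N-1 (53166626 to 53167178) and TRAV14N-2 (53259578 to 53260179) had 0 contigs, and over these 267 bases their sequences equal those of TRAV14D-1 and TRAV14D-2. The labels TRAV14D-1 and TRAV14D-2 therefore cannot be assigned to 1 gene each, which leaves the place on the chromosome uncertain for these 2 labels.

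The libraries held 2069 and 2522 barcodes for 5xFAD and 765 and 1330 for 5xFAD;Cxcr6-/-, with 13460 to 34772 UMIs (counted molecules). Of all barcodes, 28 occurred in more than 1 library, 0 of these shared a CDR3 between libraries, and 3 family cells carried such a barcode. The median was 4 to 5 UMIs per family TRA contig and 4 per other TRA contig in every library. iNKT-like cells, defined by TRAV11 or TRAV11D joined to TRAJ18, numbered 240 and 177 in 5xFAD but 25 and 22 in 5xFAD;Cxcr6-/-, and they enter the denominator of every share of all TRA chains.

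Family chains were found in every library at a share of 7.31% to 10.5% of clones or cells. They made up 8.48% (95% Clopper-Pearson interval 6.88% to 10.3%) and 8.24% (6.79% to 9.89%) of clones with a TRA in the 5xFAD libraries, from 90 of 1061 and 105 of 1274 clones. In the 5xFAD;Cxcr6-/- libraries the share was 10.5% (7.93% to 13.6%) and 9.10% (7.30% to 11.2%), from 51 of 485 and 82 of 901 clones. The groups did not overlap, and all 4 intervals did. The means were 8.36% ± 0.170 and 9.81% ± 1.0 (SD, n = 2 each), a difference of 1.45 percentage points, with an exact two-sided permutation p of 0.333, the smallest that 2 libraries against 2 allow. The difference was 0.739 without the first 5xFAD;Cxcr6-/- library and 2.15 without the second. Intervals cover counting error only.

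The iNKT-like cells moved with this difference. With those cells left out, the family made up 10.6% and 9.34% of 5xFAD clones and 11.1% and 9.33% of 5xFAD;Cxcr6-/- clones. The genotypes then overlapped, and the difference was 0.242 percentage points (exact permutation p = 1).

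By cells the family held 7.31% and 7.68% in 5xFAD and 9.41% and 7.54% in 5xFAD;Cxcr6-/-, from 121, 158, 61 and 85 family cells. The second 5xFAD;Cxcr6-/- library lay between the 5xFAD libraries. The difference of 0.984 percentage points had an exact permutation p of 0.667, and it was 0.0482 without the first 5xFAD;Cxcr6-/- library and 1.92 without the second.

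**Figure D1:**
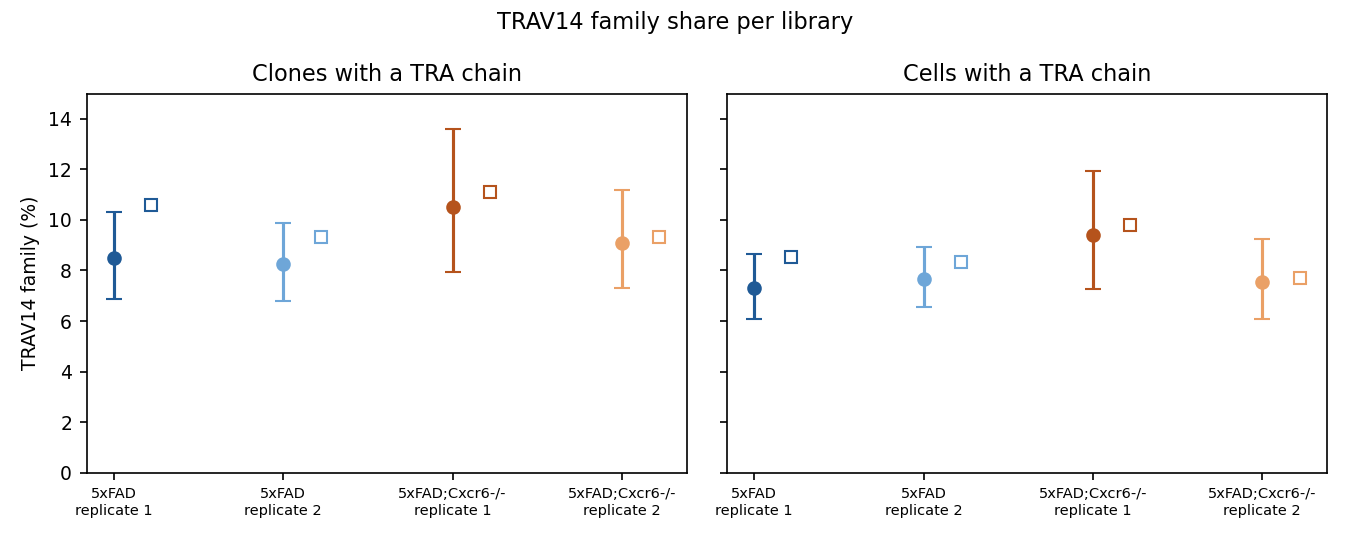
Share of clones (left) and cells (right) with a TRA chain that carry a TRAV14 family chain, in percent, per library, with 95% Clopper-Pearson intervals (filled circles) and the same share without iNKT-like cells (open squares). The filled circles lie between 7.31% and 10.5%, and the open squares of the 2 genotypes overlap in both panels.

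No change of the family by genotype was detected. edgeR's quasi-likelihood test on clones per TRAV family, TRAJ, TRBV and TRBJ called 2 of 101 rows (1.98%) at a Benjamini-Hochberg adjusted p under 0.05, and these were TRAV11 and TRAJ18, both lower in 5xFAD;Cxcr6-/-. TRAV14 had a log2 fold change of 0.21 (SE 0.16) for 5xFAD;Cxcr6-/- over 5xFAD, with an edgeR adjusted p of 0.630. Over 14 alternatives, DESeq2 among them, the adjusted p ranged from 0.623 to 0.999. The median log2 fold change over the 24 TRAV families was 0.20, next to the value of TRAV14 itself. The log2 fold change was 0.01 without iNKT-like cells, 0.12 without the first 5xFAD;Cxcr6-/- library and 0.33 without the second.

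TRAV14 ranked 6 of 27 TRAV families, with a mean of 9.09% of clones. The families whose share varied most like it over the 4 libraries, of 13 compared, were TRAV4, TRAV7 and TRAV5. The measure was the largest difference in log2 share after centring each family over the 4 libraries, and it was 0.04 for TRAV4, 0.08 for TRAV7 and 0.13 for TRAV5. All 3 shared with TRAV14 a highest share in the first 5xFAD;Cxcr6-/- library, such as 4.54% of clones there for TRAV4 against 3.45% to 3.996% elsewhere. With 4 points from libraries that share their totals, this is a description only.

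All 6 copies were in use in every library, and none dominated. TRAV14N-3 had the most clones with 69, followed by TRAV14D-1 with 63, TRAV14-1 with 56, TRAV14-3 with 53, TRAV14-2 with 49 and TRAV14D-2 with 40. Because the copies are near-identical, their split depends on the authors' assignment of each contig.

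TRAV14N-3 made up 1.41% and 1.73% of clones with a TRA in 5xFAD and 2.68% and 2.11% in 5xFAD;Cxcr6-/-. TRAV14-3, which has the same CDR1 and CDR2, made up 1.51% and 1.02% in 5xFAD and 2.06% and 1.55% in 5xFAD;Cxcr6-/-. By this measure, whose denominator includes iNKT-like clones, these are the 2 copies whose genotypes did not overlap, both higher in 5xFAD;Cxcr6-/-. Each had an exact permutation p of 0.333. Chance alone leaves 2 libraries against 2 without overlap at that rate, and 2 of 6 copies do not exceed it. As a share of family clones, TRAV14-3 took 17.8% and 12.4% in 5xFAD and 19.6% and 17.1% in 5xFAD;Cxcr6-/-, which overlapped. TRAV14N-3 took 16.7% and 20.9% in 5xFAD and 25.5% and 23.2% in 5xFAD;Cxcr6-/-, which did not. In edgeR's quasi-likelihood test on single labels, where 2 of 152 (1.32%) were called, neither passed: the log2 fold change was 0.54 (SE 0.35) for TRAV14N-3 and 0.48 (SE 0.43) for TRAV14-3, each with a Benjamini-Hochberg adjusted p of 0.743. With 1 library left out the value for TRAV14-3 ranged from 0.20, without 5xFAD replicate 2, to 0.76, without 5xFAD replicate 1, and that for TRAV14N-3 from 0.41 to 0.75.

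The other copies overlapped between genotypes or turned on 1 library. TRAV14-2 took 1.41% and 0.785% of clones in 5xFAD and 0.825% and 2.22% in 5xFAD;Cxcr6-/-, so its highest and next to lowest values belonged to the same genotype. Its log2 fold change of 0.68 (SE 0.48) became -0.37 without the second 5xFAD;Cxcr6-/- library. TRAV14D-1 made up 1.51%, 1.96%, 1.65% and 1.55%, TRAV14D-2 1.13%, 1.10%, 1.24% and 0.888%, and TRAV14-1 1.51%, 1.65%, 2.06% and 0.999%, 5xFAD libraries first. Their log2 fold changes were -0.14 (SE 0.39), -0.14 (SE 0.52) and -0.20 (SE 0.43), and each changed sign when 1 library was left out.

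**Figure D2:**
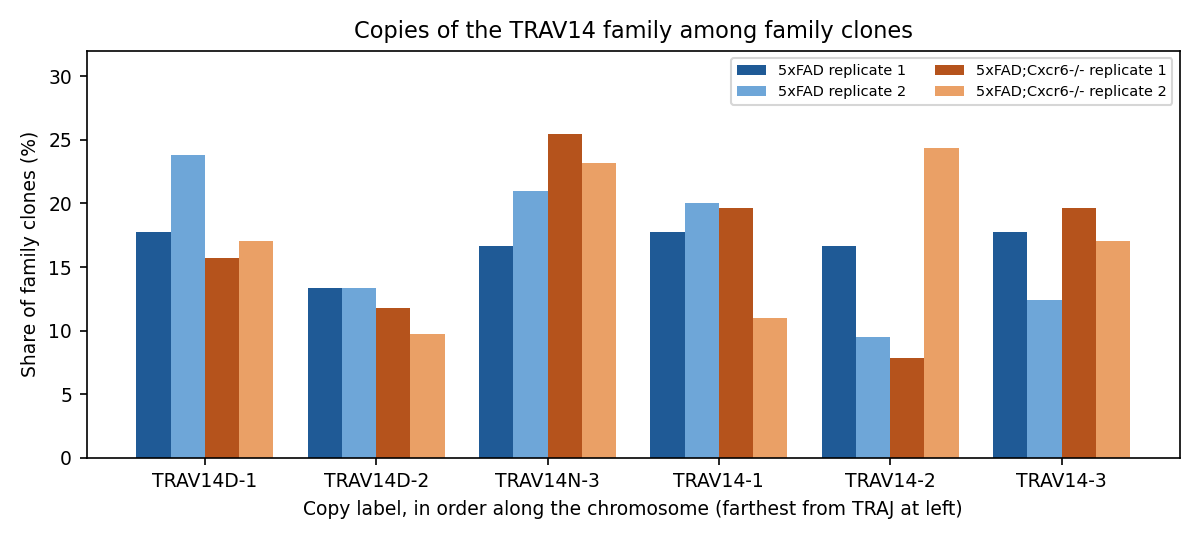
Share of TRAV14 family clones (percent) that carry each copy label, with 1 bar per library and the copies in chromosomal order. Every copy has clones in every library, and TRAV14-2 shows the widest spread, with its highest bar in 5xFAD;Cxcr6-/- replicate 2.

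The clearest pattern within the family was which TRAJ each copy was joined to. TRAV14-3, the copy nearest to the TRAJ array, was joined to the nearest TRAJ segments, and the distant copies were joined farther down the array. Of the TRAV14-3 chains, 45 of 53 (84.9%) used TRAJ58 to TRAJ40. For TRAV14-2 and TRAV14-1 this share was 36.7% of 49 chains and 30.4% of 56. It was 10.1% of 69 for TRAV14N-3, 7.50% of 40 for TRAV14D-2 and 12.7% of 63 for TRAV14D-1.

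The pattern of TRAV14-3 held in each library. Its chains used TRAJ58 to TRAJ40 in 87.5% and 92.3% of cases in 5xFAD libraries, against 90.0% and 71.4% in those of 5xFAD;Cxcr6-/-. The remaining family chains did so in 18.9%, 19.6%, 14.6% and 21.4%. The mean difference was 66.7 percentage points ± 11.5 (SD, n = 4 libraries), higher in 4 of 4, with an exact two-sided sign-flip permutation p of 0.125, the smallest that 4 libraries allow. TRAV14-3 was singled out for this comparison after its values were seen.

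The mean TRAJ number of each copy, a measure of position in which a lower number lies farther from the TRAV segments, was highest for TRAV14-3 as well. Over the 4 libraries it was 42.1 to 50.5 for TRAV14-3, 28.2 to 34.2 for TRAV14-2 and 32.3 to 38.2 for TRAV14-1. It was 23.2 to 27.9 for TRAV14N-3, 18.2 to 26.8 for TRAV14D-2 and 21.8 to 26.2 for TRAV14D-1. TRAV14-3 did not overlap any other copy, and the libraries of TRAV14-2 overlapped those of TRAV14-1. The ranges of the D and N copies overlapped each other and lay below those of the other 3. At the far end of the array, TRAJ20 to TRAJ2 took 50.0% of TRAV14D-2 chains and 1.89% of TRAV14-3 chains.

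**Figure D3:**
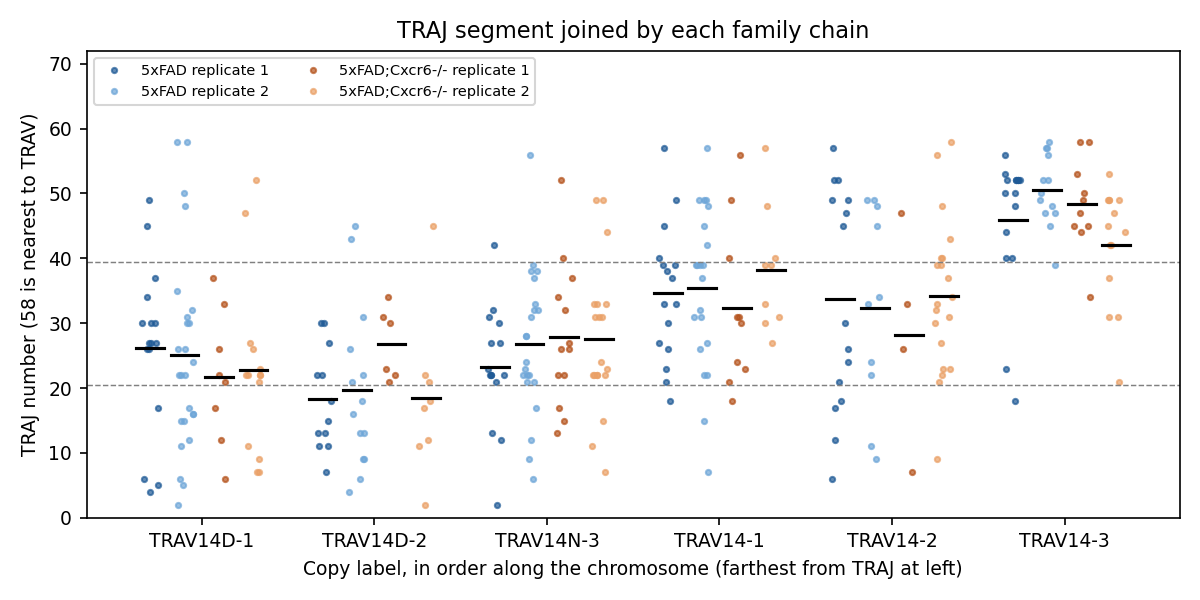
TRAJ number joined by each family chain (1 point per clone and chain), by copy label in chromosomal order and by library; black lines are library means and dashed lines part TRAJ58 to TRAJ40, TRAJ39 to TRAJ21 and TRAJ20 to TRAJ2. The library means of TRAV14-3 lie between 42.1 and 50.5, above those of every other copy.

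Taken as a whole the family lay only slightly nearer the front of the array than other TRAV chains. TRAJ58 to TRAJ40 was used by 31.1%, 28.6%, 29.4% and 29.8% of family chains (5xFAD libraries first) and by 25.7%, 25.4%, 26.9% and 28.6% of other chains without the iNKT-like ones. The family was higher in 4 of 4 libraries, by 3.08 percentage points ± 1.80 (SD), with an exact sign-flip permutation p of 0.125. The family values did not differ between genotypes beyond the spread of the libraries: the difference was -0.25 percentage points.

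TRAJ39 to TRAJ21 was used by 46.7% of family chains of both 5xFAD libraries, against 54.9% and 54.8% in 5xFAD;Cxcr6-/-. TRAJ20 to TRAJ2 was used by 22.2% and 24.8% of 5xFAD chains, against 15.7% and 15.5% of 5xFAD;Cxcr6-/- chains. Neither pair of groups overlapped, with genotype differences of 8.16 and -7.91 percentage points and an exact permutation p of 0.333 for each, the smallest possible. Among other chains the middle group took 47.9% and 50.6% in 5xFAD and 48.9% and 49.3% in 5xFAD;Cxcr6-/-, which overlapped.

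Single TRAJ segments gave no call. edgeR's quasi-likelihood test of family against other chains called 0 of 43 TRAJ segments (0%) at a Benjamini-Hochberg adjusted p under 0.05, with 2 at an unadjusted p under 0.05, and DESeq2 also called 0. TRAJ22 was the segment most used, by 6.67%, 9.52%, 7.84% and 13.1% of family chains, a mean of 9.28% ± 2.80 (SD, n = 4) against 6.25% ± 0.516 of other chains, higher in 4 of 4 libraries. TRAJ49 followed with a mean of 5.31% against 3.61%, also higher in 4 of 4. Of the 43 segments, TRAJ45 and TRAJ47 were likewise higher in 4 of 4 libraries, and TRAJ43 and TRAJ4 in 0 of 4. These were named after their values were seen. Chance alone puts a segment on 1 side in all 4 libraries at a rate of 0.125. TRAJ31, TRAJ26 and TRAJ30 had means of 5.02%, 4.32% and 4.27% against 4.85%, 3.91% and 4.09%. On simulated data with 43 TRAJ segments the test recovered 13.0% of 2-fold and 58% of 4-fold changes, so changes of this size were mostly below what it detects.

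The family had 302 distinct CDR3 amino acid sequences, of 10 to 18 residues with a median of 14. The mean length was 13.7, 13.4, 13.5 and 13.4 residues in the 4 libraries, against 13.6, 13.7, 13.7 and 13.7 for other chains. Of 330 family chains, 215 kept the 4 first residues that the germline end of every copy encodes. Untemplated bases, counted as CDR3 bases that match neither the V end nor the J segment, had a median of 3 in both sets. None were needed in 49 of 330 family chains (14.9%) and in 503 of 3385 other chains (14.9%).

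A few family CDR3s occurred in more than 1 library, and their chains carried fewer added bases, largely through a single TRAJ22 loop. Of the 302 sequences, 10 (3.31%) were found in 2 or more libraries and 2 of them in 3, and 7 (2.32%) were written in 2 or more nucleotide forms. Among other chains, 159 of 3034 sequences (5.24%) were shared and 136 (4.48%) had several forms, but the sets differ in size and the shares are not like for like. The 30 chains with a shared CDR3 had a median of 1 untemplated base and 14 had none (46.7%), against a median of 3 and 35 of 300 (11.7%) for the chains seen in 1 library. Of the 14 shared chains with none, 10 carried the same TRAJ22 loop, counted once per clone, so the contrast rests largely on that loop. The counts are over chains and were not tested.

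The most repeated loop needed no added base. It joined TRAJ22, and the same amino acid sequence was found in 11 clones of 13 cells in 3 libraries, both 5xFAD and 5xFAD;Cxcr6-/- replicate 2, on 4 different copies (TRAV14-1, TRAV14D-1, TRAV14D-2 and TRAV14N-3). Its nucleotide forms are shown 5′ to 3′ with untemplated bases in capitals, the first in 10 clones and the second in 1.
Shared TRAJ22 loop, first form: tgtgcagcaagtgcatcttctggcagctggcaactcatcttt
Shared TRAJ22 loop, second form: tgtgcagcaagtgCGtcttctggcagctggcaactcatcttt
Other TRAJ22 loops also recurred, each with 1 amino acid sequence in 2 forms. One was found in 1 clone of 5xFAD replicate 2 and 1 clone of 5xFAD;Cxcr6-/- replicate 2, both times on TRAV14D-1.
TRAV14D-1 and TRAJ22, 5xFAD;Cxcr6-/-: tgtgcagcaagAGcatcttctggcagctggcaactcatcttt
TRAV14D-1 and TRAJ22, 5xFAD: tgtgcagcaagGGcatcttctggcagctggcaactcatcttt
Another was found on TRAV14N-3 in both 5xFAD;Cxcr6-/- libraries.
TRAV14N-3 and TRAJ22, replicate 1: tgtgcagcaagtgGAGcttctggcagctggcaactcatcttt
TRAV14N-3 and TRAJ22, replicate 2: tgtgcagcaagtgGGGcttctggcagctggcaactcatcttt

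Within 5xFAD replicate 1 the first of these TRAJ22 loops met the same beta loop in separate clones. Clonotypes 861 and 905, each 1 cell, both carried it on TRAV14N-3, and both had a TRBV16 and TRBJ2-7 beta chain with the same CDR3 amino acids. The beta chains were written in different nucleotides, and clonotype 840 of the same library, for which the table lists no alpha chain, held yet another form of the same residues. Capitals mark positions at which the 3 forms are not all alike.
Clonotype 840: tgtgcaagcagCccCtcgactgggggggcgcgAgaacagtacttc
Clonotype 861: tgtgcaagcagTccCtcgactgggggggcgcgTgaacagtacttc
Clonotype 905: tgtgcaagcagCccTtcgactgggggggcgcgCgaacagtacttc
The contigs rested on 8, 10 and 14 UMIs. The alpha chains of clonotypes 861 and 905 had the same V label, J and CDR3 nucleotides. Both of those cells also held a different alpha chain, and the 2 cells differed in it. This beta loop was found in no other library. It was singled out after its values were seen.

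The other loop found in 3 libraries belonged to the largest family clone. It joined TRAV14D-1 to TRAJ26 and had a single nucleotide form with 2 untemplated bases, in capitals.
Shared TRAJ26 loop: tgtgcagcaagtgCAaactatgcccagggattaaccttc
It was carried by 18 cells of 1 clone in 5xFAD replicate 2, by 1 cell in 5xFAD replicate 1 and by 1 cell in 5xFAD;Cxcr6-/- replicate 2. Their beta chains used TRBV19, TRBV26 and TRBV1. The first 2 had TRBJ2-3 and the same 4 residues in a row at the centre of the beta CDR3, which the last lacked. A TRAV14D-1 and TRAJ26 clone of 5xFAD replicate 1 with 5 cells, clonotype 31, had a different alpha loop and also TRBJ2-3 and these 4 residues, on TRBV14. The beta CDR3s are shown with the codons of the 4 residues in capitals.
TRBV19, 5xFAD replicate 2, 19 cells: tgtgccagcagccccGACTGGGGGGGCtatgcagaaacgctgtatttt
TRBV14, 5xFAD replicate 1, 5 cells: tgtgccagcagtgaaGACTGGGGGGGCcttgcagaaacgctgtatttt
TRBV26, 5xFAD replicate 1, 1 cell: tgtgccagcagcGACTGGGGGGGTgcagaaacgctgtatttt
All 3 clones came from 5xFAD libraries. The capitals of the first line are the last 12 of the 14 bases of the germline Trbd2 segment (GENCODE vM21), a diversity segment that joins between TRBV and TRBJ, so germline sequence alone can encode these residues.
Trbd2: ggGACTGGGGGGGC

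How common these 4 residues are was counted after they were seen. They were present in the beta CDR3 of 71 of 4344 clones with a TRB (1.63%), of which 70 had the D label TRBD2, and in 19.6% of the 357 clones with that label. They were in 7 of 311 family clones with a TRB, and in 3 of the 13 of them whose family chain used TRAJ26. By library, 1.73% and 1.81% of all clones with a TRB held them in 5xFAD, and 1.80% and 1.17% did in 5xFAD;Cxcr6-/-. Among family clones these were 3 of 87, 4 of 97, 0 of 48 and 0 of 79, too few to compare the genotypes. This is a description of clones picked for their likeness.

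The remaining loops in 2 libraries spanned both genotypes, except the TRAV14N-3 and TRAJ22 loop above and a TRAJ31 loop, which were found only in the 5xFAD;Cxcr6-/- libraries. Those with TRAJ23 and TRAJ2 needed no untemplated base.
TRAJ23 loop, 2 libraries: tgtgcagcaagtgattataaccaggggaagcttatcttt
TRAJ2 loop, 2 libraries: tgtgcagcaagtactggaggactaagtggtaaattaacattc
Those with TRAJ33, TRAJ7 and TRAJ52 needed 1 to 2. A TRAJ57 and a TRAJ18 loop had 2 forms each within a single 5xFAD library. For each of these 12 loops, 0 beta CDR3s occurred in 2 libraries. For the TRAJ31 loop, with 0 beta CDR3s, and the TRAJ57 and TRAJ18 loops, each in 1 library, none could be seen to recur.

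Family clones paired with many TRBV segments, and none was called as used more or less than in other clones. Of family clones outside the iNKT-like set, 309 had a TRB chain. TRBV12-2+TRBV13-2, a joint label of the deposited tables, was used by 6.90% and 8.42% of the family clones of 5xFAD, against 16.7% and 11.4% of those of 5xFAD;Cxcr6-/-, a mean of 10.8% ± 4.31 (SD) against 8.54% of other clones. TRBV3 followed with a mean of 10.5% ± 2.50 against 8.76%. TRBV12-2 and TRBV13-2 also had labels of their own, so the joint label does not give the full use of these segments. With 5xFAD libraries first, TRBV12-2 alone was used by 8.05%, 1.05%, 2.08% and 2.53% of family clones. TRBV13-2 alone was used by 1.15%, 1.05%, 6.25% and 1.27%.

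TRBV12-1 had a mean of 8.12% ± 1.88 against 5.32% and was higher than among other clones in 4 of 4 libraries. So was TRBV31, with a mean of 6.55% against 3.93%, while TRBV13-3, TRBV29 and TRBV10 were higher in 0 of 4. These were named after their values were seen. Chance alone puts a label on 1 side in all 4 libraries at a rate of 0.125. TRBV16 was used by 10.3% and 8.42% of family clones in 5xFAD and 6.25% and 5.06% in 5xFAD;Cxcr6-/-, and TRBV19 by a mean of 7.27% against 8.47%. edgeR's quasi-likelihood test called 0 of 22 TRBV labels (0%) at a Benjamini-Hochberg adjusted p under 0.05, with 0 at an unadjusted p under 0.05, and DESeq2 called 0. The smallest edgeR adjusted p was 0.674. On simulated data of this size the test recovered 28.3% of 2-fold and 85.0% of 4-fold changes.

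**Figure D4:**
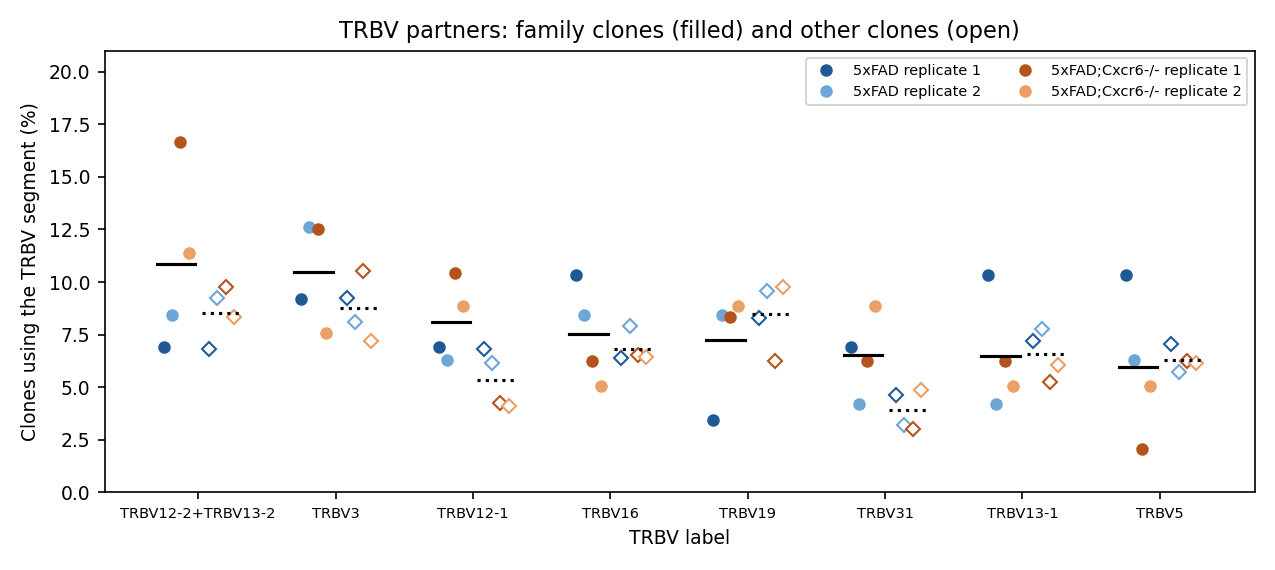
Percent of clones that use each of the 8 TRBV labels most frequent among TRAV14 family clones, per library, for family clones (filled circles, solid line at the mean) and other clones without iNKT-like ones (open diamonds, dotted line at the mean). Family and other clones overlap for most labels. TRBV12-1 has a mean of 8.12% against 5.32%, and TRBV31 a mean of 6.55% against 3.93%.

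Most family clones were single cells. Of 328 clones, 294 had 1 cell and 34 were expanded, meaning 2 or more cells. There were 16 clones of 2 cells and 12 of 5 or more, of which the 5xFAD libraries held 4 and 6 and the 5xFAD;Cxcr6-/- libraries 2 and 0. In 12 clones some cells lacked the family chain that others of the clone carried. In 3 cases a pair of clonotype numbers of 1 library had identical nucleotides in both a family alpha and a beta CDR3, so the deposited numbers split some clones.

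Expanded clones were less frequent among family clones than among other clones in each library. Of family clones, 11.1% (10 of 90) and 15.2% (16 of 105) were expanded in 5xFAD, and 7.84% (4 of 51) and 4.88% (4 of 82) in 5xFAD;Cxcr6-/-. Of other clones with a TRA chain that was not iNKT-like, 15.5%, 21.3%, 14.1% and 12.05% were. The family was lower in 4 of 4 libraries, with a difference of -5.96 percentage points ± 1.14 (SD, n = 4) and an exact two-sided sign-flip permutation p of 0.125, the smallest possible. By cells, 33.9%, 43.7%, 23.0% and 8.24% of family cells were in expanded clones against 50.1%, 53.7%, 37.4% and 31.3% of other cells, a difference of -15.9 percentage points ± 5.40.

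Seen from the other side, the share of the family was taken among all clones with a TRA, here with iNKT-like ones included. The family made up 7.09%, 6.61%, 6.45% and 3.96% of expanded clones and 8.70%, 8.62%, 11.1% and 9.75% of single clones. All 4 values among expanded clones lay below those among single clones. edgeR's quasi-likelihood test with the library as a block gave a log2 fold change of -0.56 (SE 0.25) for expanded over single, with an edgeR p of 0.0319 before and 0.227 after Benjamini-Hochberg adjustment, so the family was not called. Over 11 alternatives, DESeq2 among them, the adjusted p ranged from 0.0765 to 0.729. The main fit included iNKT-like clones, and without iNKT-like cells the log2 fold change was -0.74 (edgeR adjusted p = 0.104). The test called 2 of 101 rows (1.98%), TRAV11 and TRAJ18, with 17 at an unadjusted p under 0.05. The median log2 fold change was 0.06 over all rows and 0.30 over TRAV families. Of the families closest in profile, TRAV4 had -0.51 (SE 0.37), near the value of TRAV14. TRAV7 had 0.03 (SE 0.19) and TRAV5 0.37 (SE 0.32). For TRAV14 the interaction of expanded over single with genotype was -0.71 (SE 0.62, edgeR adjusted p = 0.862). That test called 0 of 101 rows (0%), with 6 at an unadjusted p under 0.05.

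**Figure D5:**
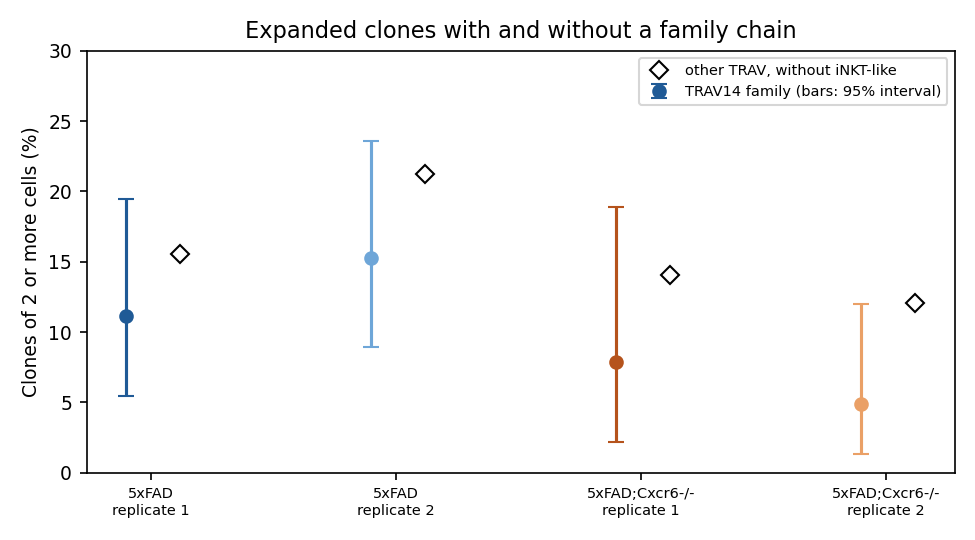
Percent of clones with 2 or more cells, per library, for clones with a TRAV14 family chain (filled circles with 95% Clopper-Pearson intervals) and for other clones with a TRA chain that is not iNKT-like (open diamonds). The family lies below the other clones in all 4 libraries, and its interval includes their value in 3 of them.

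Between genotypes, clone size was compared at a common depth because small libraries show fewer repeated clones. At 765 cells per library, the expected share of family cells in expanded clones was 27.3% and 34.2% in 5xFAD and 23.0% and 4.73% in 5xFAD;Cxcr6-/-. The genotypes did not overlap, with means of 30.8% ± 4.93 and 13.8% ± 12.9 (SD, n = 2 each), a difference of -16.9 percentage points and an exact permutation p of 0.333. The difference was -7.81 without the second 5xFAD;Cxcr6-/- library and -26.03 without the first. Among other cells the same quantity was 41.6% and 39.6% in 5xFAD and 37.4% and 26.04% in 5xFAD;Cxcr6-/-, which did not overlap either.

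Expansion was uneven over the copies. TRAV14D-1 had 14 expanded clones of 63 (22.2%) and 7 of the 12 clones with 5 or more cells, while the other copies had 5.00% to 8.93% of clones expanded. TRAV14D-1 held 120 family cells in its 63 clones, a mean of 1.90 cells a clone, and TRAV14D-2 held 40 cells in 40 clones. These are cells with the copy's own chain, while clone size counts every barcode of the clonotype. By clone size, 2 of the 40 TRAV14D-2 clones were therefore expanded. The excess of TRAV14D-1 was not seen in every library: 5 of 16 and 8 of 25 of its clones were expanded in 5xFAD, but 1 of 8 and 0 of 14 in 5xFAD;Cxcr6-/-. For the other copies together the counts were 5 of 74, 8 of 80, 3 of 43 and 4 of 69. The pooled share thus rests on the 5xFAD libraries, and it was not tested.

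The largest clones used several copies and beta segments. In 5xFAD replicate 2 the clone with the shared TRAJ26 loop held 19 cells, 0.753% of barcodes (95% Clopper-Pearson interval 0.454% to 1.17%). Next came a TRAV14-2 and TRAJ48 clone of 11 cells with TRBV15 and a TRAV14D-1 and TRAJ58 clone of 8 cells with TRBV3.

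In 5xFAD replicate 1 there were 2 clones of 10 cells. The first joined TRAV14D-1 to TRAJ30, with TRBV13-1, and the second joined TRAV14-2 to TRAJ26, with TRBV1. The 2 large TRAJ26 clones, from different libraries, had alpha junctions of the same length, shown with untemplated bases in capitals.
TRAV14D-1, 5xFAD replicate 2, 19 cells: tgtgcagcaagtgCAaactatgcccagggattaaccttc
TRAV14-2, 5xFAD replicate 1, 10 cells: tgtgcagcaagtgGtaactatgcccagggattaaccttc
A clone of 6 cells followed, with TRAV14-3, TRAJ52 and TRBV14. Only 3 of its cells carried the family chain.

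In 5xFAD;Cxcr6-/- replicate 1 the largest family clones had 5, 5 and 3 cells. Their alpha chains were TRAV14D-1 with TRAJ37, TRAV14-3 with TRAJ50 and TRAV14-1 with TRAJ56. In replicate 2 no family clone exceeded 2 cells, and 4 clones had that size. The 3 with the lowest clonotype numbers were TRAV14N-3 with TRAJ33, TRAV14N-3 with TRAJ11 and TRAV14D-2 with TRAJ12.

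Some family cells held 2 alpha chains. They made up 17.4% and 12.7% of family cells in 5xFAD and 11.5% and 20% in 5xFAD;Cxcr6-/-, from 21, 20, 7 and 17 cells, and the genotypes overlapped. Of all cells with a TRA, 8.70% to 11.0% held 2, but a cell with 2 alpha chains has 2 chances to hold a family chain, so these shares are not like for like. In 2 cells, both in 5xFAD;Cxcr6-/- replicate 2, both alpha chains were of the family.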

How the data were processed

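Libraries of single-cell T cell receptors were made with a 10x Genomics immune profiling kit, per the labels' protocols. Cell Ranger 6.0 and mm10 are named per the submitters' processing notes, and the receptor reference is not given in the sources used here. Per the file headers, each contig of the deposited tables comes with its read and UMI counts, not normalized, and all contigs used were productive. The contig length in bases, another column of the deposited tables, was read only to describe the contigs. The 4 samples of gene expression are not analysed here.

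Clones followed the deposited clonotype numbers. Coordinates and germline V and J sequences were read from GENCODE vM21, which uses GRCm38 (mm10). Segment use was tested with edgeR 4.0.16 (quasi-likelihood F test, R 4.3.3) on clones per segment, the offset being the logged clone total, in rows of at least 10 clones, a filter which all 6 copies passed. Benjamini-Hochberg adjustment covered all rows, with a threshold of 0.05. The SE is the fold change divided by the square root of F. Library values were compared with exact two-sided permutation tests, and a share of 1 library has a 95% Clopper-Pearson interval (scipy 1.17.1). Shares at a common depth are hypergeometric expectations for 765 cells. Other chains exclude iNKT-like ones in the TRAJ, TRBV, CDR3 and clone size comparisons. The test of expanded against single clones includes them.

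The tests were tried on simulated data. Changes were placed only in rows with larger clone totals, and the spread between libraries was a fixed value, not one estimated from these data. Recovery in sparse rows was therefore not measured. In the genotype test by TRAV family, 47.0% of 2-fold and 95.0% of 4-fold changes were recovered among 101 rows, and 41.0% and 83.0% for expanded against single clones. Alternatives covered DESeq2 1.42.0, TMM scaling, no filter, rebuilt clones, a minimum of 3 UMIs, the DV copy joined, cells or distinct chains as the unit, no iNKT-like cells, a replicate block and each library left out.

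Named items were all copies, called rows, the 5 TRAJ and 5 TRBV most used by the family, the 3 largest family clones of each library, CDR3s in 2 or more libraries or of 2 or more nucleotide forms, and the 3 TRAV families closest in profile. Items named outside this rule are said to be chosen after their values were seen. The members and lists were chosen with earlier results of these data known.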

Additional observations from a re-analysis of the deposited data

Results flagged for a closer look

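For 3 of 21 measures compared between family and other chains, both 5xFAD libraries lay on one side of 0 and both 5xFAD;Cxcr6-/- libraries on the other, a pattern that chance gives for 12.5% of measures. The difference was not tested for any of the 3. The share of chains with TRAJ39 to TRAJ21, family minus other, was higher in 5xFAD;Cxcr6-/- by 8.31 percentage points. The share of chains with 0 untemplated bases, family minus other, differed by -8.65 percentage points: family chains gave 15.6% and 20% in 5xFAD and 1.96% and 15.5% in 5xFAD;Cxcr6-/-. It rests on 5xFAD;Cxcr6-/- replicate 1, without which it was -3.15, while without replicate 2 it was -14.17. The share of clones with TRBV16, family minus other, differed by -3.06 percentage points, and by -1.34 without 5xFAD replicate 1 and -4.76 without 5xFAD replicate 2.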

How the results depend on the processing

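The number of rows called by genotype (2 in the TRAV family test) was 0 without iNKT-like cells, 1 with distinct chains, 0 by cells and 0 to 2 with 1 library left out, and in the test by label (2) it was 0 to 2. For expanded against single clones (2 called) it was 4 with no filter, 7 with TMM scaling, 6 with rebuilt clones, 0 without iNKT-like cells and 0 to 3 with 1 library left out. TRAV14 itself was called in none of these. With 1 library left out, log2 fold changes ranged from -0.30 to 0.0744 for TRAV14D-1, -0.32 to 0.15 for TRAV14D-2, -0.66 to 0.38 for TRAV14-1, -0.37 to 1.11 for TRAV14-2, -0.38 to 0.45 for TRAJ31, -0.20 to 0.25 for TRAJ26, -0.75 to 0.41 for TRAJ30 and -0.065 to 0.30 for TRBV16. TMM scaling gave -0.13 for TRAJ31, -0.17 for TRAJ26 and -0.10 for TRAJ30, joining the DV copy gave -0.000179 for TRAJ31 and -0.10 for TRAJ26, and clones with exactly 1 TRB and 1 TRA gave -0.17 for TRBV16. The causes were not tested. The replicate block gave TRAV14 a log2 fold change of 0.21 (edgeR adjusted p = 0.684). With only 2 pairs, whose deviations correlated at 0.151 over 101 rows, the libraries share only a number. The genotype difference in family cells in expanded clones was -26.0 to -7.81 with 1 library left out and -13.9 without the largest family clone of each library, an alternative chosen after seeing the data, which gave 1.21 percentage points for the share of cells. Leaving out a library leaves 1 genotype with a single library, assumed to vary like the other. Depth limits the copies, at 4 to 25 clones per library, and single TRAJ and TRBV segments, which had at most 12 family clones in a library.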
